A study of Rattus norvegicus with 15 samples.

Results

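Mitochondrial fusion, fission and mitophagy genes were followed by name through the expression table. The 10 genes were Mfn1, Mfn2, Opa1, Dnm1l, Fis1, Mff, Pink1, Bnip3, Bnip3l and Fundc1. Each symbol stood on a single entry of the 19328 in the table, and all 10 reached the minimum level set for testing, so none was lost to that filter.

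Mitochondria join and divide continuously. MFN1 and MFN2, GTPases of the outer membrane, fuse outer membranes, and OPA1, a GTPase of the inner membrane, fuses inner membranes and holds cristae in shape. Division is carried out by DRP1, the dynamin-related GTPase that Dnm1l encodes, which is brought to the outer membrane by receptors such as MFF, with FIS1 as a further outer membrane protein of the process. Mitophagy delivers damaged mitochondria to lysosomes. PINK1 is a kinase that accumulates on mitochondria that have lost their membrane potential, and BNIP3, BNIP3L (also called NIX) and FUNDC1 are outer membrane receptors that bind LC3-family proteins directly. Bnip3 is a known target of hypoxia-inducible factors, and in heart muscle cells, which depend on oxidative metabolism, excess BNIP3 has been tied to mitochondrial injury and cell death.

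The samples were H9c2 cells, a myoblast line from embryonic rat heart, in 5 groups of 3 RNA-seq libraries each. In DSI+DOX, AXT+DOX and DMT+DOX the cells received 50 µL of DSI (danshen injection) diluted 1 in 20, 5 µM AXT (astaxanthin, a carotenoid) or 10 µM DMT (diosmetin, a flavone), each 4 h ahead of 2 µM doxorubicin. The DOX group received 2 µM doxorubicin alone, and the con group received PBS. Doxorubicin is an anthracycline that damages DNA through topoisomerase II, and cells were collected 24 h after it was added. No group had an addition without doxorubicin. All libraries came from a single cell line, labelled WT in the con group.

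The labels call the cells cardiomyocytes. Of 14 cardiomyocyte markers in the table, 3 reached 1 FPKM (fragment counts scaled to transcript length and library size) in any library, namely Tnnt2, Nkx2-5 and Gata4, and Myh6, Myh7, Tnni3, Actn2 and Ryr2 stayed under 1 in all 15. Of 13 skeletal myoblast and myotube markers, 9 reached 1 FPKM, as did 5 of 10 fibroblast, 1 of 7 leukocyte and 0 of 7 endothelial markers. The summed level of the cardiomyocyte list was 84.9 to 101 FPKM in DOX and 205 to 222 FPKM in con, that of the skeletal list 34.3 to 36.1 FPKM in DOX and 150 to 163 FPKM in con, and that of the fibroblast list 2472 to 2896 FPKM in DOX and 4790 to 4993 FPKM in con. Tnnt2 carried the cardiomyocyte sum, and Myog made up much of the skeletal sum in con. Col1a1 was the largest part of the fibroblast sum, followed by Col1a2 and Col3a1. Tnnt2, which made up most of the cardiomyocyte sum, averaged 81.2 ± 7.87 FPKM in DOX and 204 ± 9.40 FPKM in con, while Nkx2-5 averaged 6.77 ± 0.574 FPKM in DOX and 5.16 ± 0.643 FPKM in con, and Gata4 4.62 ± 0.184 FPKM in DOX and 3.81 ± 0.0846 FPKM in con. In the skeletal list, Myog averaged 2.38 ± 0.200 FPKM in DOX and 93.9 ± 4.03 FPKM in con, while Myod1 averaged 19.6 ± 0.983 FPKM in DOX and 18.1 ± 0.674 FPKM in con (SD, n = 3 each). Means of Acta1 (1.94 FPKM in DOX, 19.4 FPKM in con) and Tnnt3 (1.47 and 8.60 FPKM) were also lower in DOX. That of Chrna1 was higher (1.44 and 0.267 FPKM). In the fibroblast list, means of Col1a1 (1582 and 3143 FPKM), Col1a2 (726 and 1263 FPKM) and Col3a1 (188 and 357 FPKM) were lower in DOX. Those of Thy1 (165 and 147 FPKM) and Postn (9.26 and 7.57 FPKM) were higher. In DSI+DOX, AXT+DOX and DMT+DOX the cardiomyocyte sums, again mostly Tnnt2, were 112 to 208, 68.2 to 71.9 and 117 to 129 FPKM in that order. The skeletal sums were 45.8 to 50.7, 28.7 to 33.3 and 54.0 to 55.3 FPKM, and the fibroblast sums 2429.6 to 2943, 2678 to 2913 and 3196 to 3347 FPKM, in the same order. The part of these shifts in the results was not tested. Since whole wells were sequenced, fewer cells of a kind and less RNA per cell cannot be told apart.

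DSI+DOX replicate 3 stood apart from the other libraries. Its FPKM summed to 548227, against 433383 to 468608 in the other 14, and its correlations with its own replicates were 0.953 and 0.963, where those of all other replicate pairs were at least 0.991. Dnm1l and Fis1 lay near the ends of its differences from its replicates. Dnm1l differed from the mean of DSI+DOX replicates 1 and 2 by -1.37 on the log2 scale, and 2.66% of tested genes lay lower still. Fis1 lay 0.84 above them, with 97.5% of tested genes below. The other 8 genes had 25.1% to 77.0% of tested genes below them, and the median over all tested genes was -0.13. Because all libraries share an estimate of spread, results are given with this library and, where it changes a call, without it.

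Promoters are shown for Bnip3, the gene called with doxorubicin in all libraries, and for Pink1 and Dnm1l, which were called in opposite directions in the fit without DSI+DOX replicate 3. Each runs from 250 bases before to 50 bases after the annotated start, 5′ to 3′ on the gene's strand, in the rat build GRCr8 as given by RefSeq. Capitals mark both versions of the core of the hypoxia response element, ACGTG and GCGTG, on either strand (CACGT and CACGC where the match is on the opposite strand). Bnip3 lies at chr1:203154913-203155212 on the minus strand, Pink1 at chr5:155825901-155826200 on the minus strand, and Dnm1l at chr11:98085147-98085446 on the plus strand.
Bnip3: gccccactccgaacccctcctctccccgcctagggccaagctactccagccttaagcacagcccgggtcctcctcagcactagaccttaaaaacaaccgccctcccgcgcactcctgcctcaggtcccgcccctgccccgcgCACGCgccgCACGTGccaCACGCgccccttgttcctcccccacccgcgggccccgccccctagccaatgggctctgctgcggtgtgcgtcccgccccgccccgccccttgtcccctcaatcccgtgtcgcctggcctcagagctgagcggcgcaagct
Pink1: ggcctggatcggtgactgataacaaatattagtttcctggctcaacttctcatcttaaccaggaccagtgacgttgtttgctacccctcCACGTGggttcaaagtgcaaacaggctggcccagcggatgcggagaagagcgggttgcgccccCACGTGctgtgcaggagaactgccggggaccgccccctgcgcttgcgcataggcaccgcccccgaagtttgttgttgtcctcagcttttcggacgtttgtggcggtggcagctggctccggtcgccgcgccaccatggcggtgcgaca
Dnm1l: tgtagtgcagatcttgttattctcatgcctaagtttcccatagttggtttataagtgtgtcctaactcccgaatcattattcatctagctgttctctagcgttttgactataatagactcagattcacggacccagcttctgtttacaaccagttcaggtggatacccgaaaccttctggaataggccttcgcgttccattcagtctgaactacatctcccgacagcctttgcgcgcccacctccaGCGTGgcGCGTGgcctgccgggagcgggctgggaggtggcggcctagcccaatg

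In the Bnip3 window, which is 71.3% G and C, the letters CACGTG at base 152 of the window held ACGTG on both strands, and 2 GCGTG cores flanked it. The Pink1 window held CACGTG at bases 90 and 153, which gives 4 matches to ACGTG because the letters read the same on both strands. The Dnm1l window held no ACGTG, 2 GCGTG cores close to the start, and 1 match to the forkhead core GTAAACA. Windows were found for 7 of the 10 genes (8 windows, since Fis1 has a pair), and those of Mfn2, Bnip3l and Fundc1 were not analysed here. Of the 7 genes, 3 held ACGTG (Bnip3, Pink1 and Opa1), 5 held GCGTG, 2 held CACGTG, 1 held GTAAACA and 0 held TGATGNAA, the core of a composite site for the stress factors CHOP and ATF4. Over 33469 rat promoters of the same length, searched on both strands, ACGTG stood in 19.3%, GCGTG in 29.7%, CACGTG in 6.42%, GTAAACA in 3.78% and TGATGNAA in 3.98%. These matches describe letters in a window and not binding.

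In con, levels per transcript length on the FPKM scale ran from Fis1 down to Pink1. Fis1 was highest at 71.0 ± 4.76 FPKM, followed by Bnip3 at 38.9 ± 0.298 FPKM and Bnip3l at 30.6 ± 1.06 FPKM (SD, n = 3 each). These neighbours did not overlap. Mff at 27.1 FPKM, Dnm1l at 26.6 FPKM and Opa1 at 26.2 FPKM followed, and their libraries overlapped. Fundc1 at 14.3 FPKM, Mfn1 at 14.2 FPKM, Mfn2 at 13.5 FPKM and Pink1 at 13.4 FPKM were lowest, again with overlap between neighbours. With all libraries, the highest and lowest group means on the log2(FPKM + 1) scale differed by 0.83 for Dnm1l, 0.68 for Bnip3 and 0.57 for Fis1. The difference was smallest for Bnip3l at 0.16. DSI+DOX was the lowest group for Dnm1l and the highest for Fis1, and both differences leaned on its replicate 3. Without that library, Dnm1l in DSI+DOX was -0.37 from con, and Fis1 in DSI+DOX was 0.29 from AXT+DOX.

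**Figure D1:**
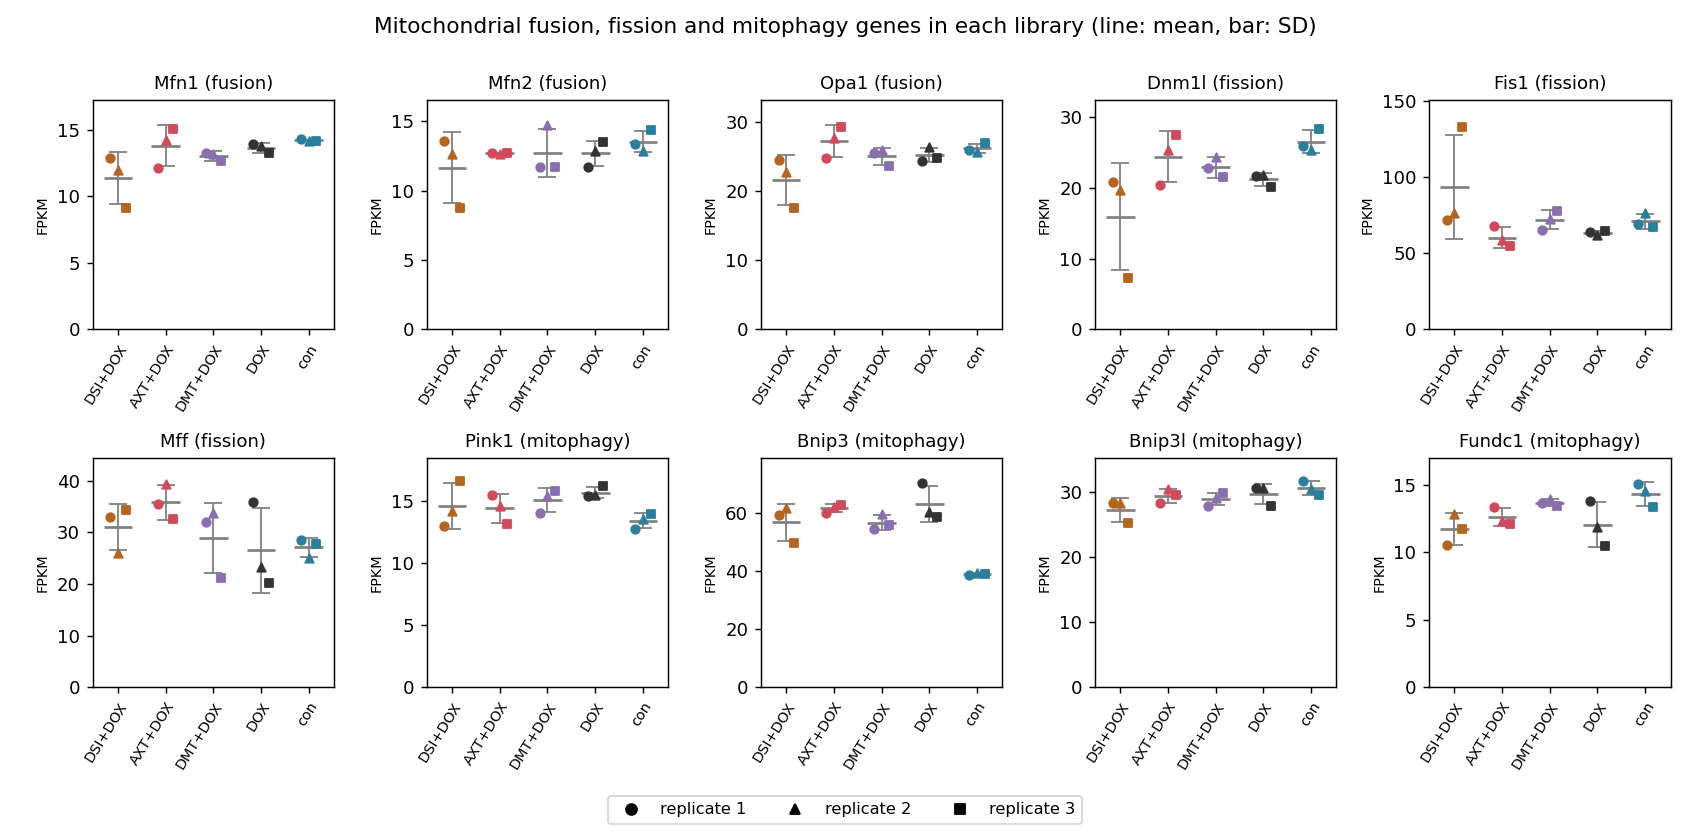
Level of each of the 10 genes in FPKM (vertical axes, linear from 0) in the 3 libraries of each group, where symbols mark replicates, lines mark the mean and bars the SD. Bnip3 was between 49.5 and 70.1 FPKM in all 12 libraries with doxorubicin and between 38.6 and 39.2 FPKM in con, and DSI+DOX replicate 3 sat apart for Dnm1l at 7.26 FPKM and Fis1 at 133 FPKM.

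With doxorubicin alone, Bnip3 rose and no other of the 10 genes passed the test. Bnip3, the mitophagy receptor under hypoxic control, had 70.1, 60.4 and 58.3 FPKM in DOX, against 38.6, 39.2 and 38.8 FPKM in con. All 3 DOX libraries lay above all 3 con libraries, and the con libraries were nearly equal. The log2 fold change was 0.68 ± 0.08 (SE, 95% interval 0.49 to 0.86), a 1.60-fold rise, with an adjusted p of 2.64e-05 in limma. That made 1 of 10 genes called, where 38.9% of the 11288 tested genes were called, 24.8% higher and 14.1% lower. With libraries scaled to equal medians, the called genes split into 2117 higher and 2149 lower, where the values as deposited gave 2802 and 1589. The median log2 fold change was -0.06 over the 10 genes and 0.05 over all tested genes, and 2 of the 10 values were positive. Libraries of DOX and con did not overlap for 5 of the 10 (Bnip3, Pink1, Dnm1l, Fis1 and Mfn1), where 62.5% of tested genes did not overlap.

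The other mitophagy genes moved less. Pink1, the kinase that marks depolarised mitochondria, had 15.4, 15.5 and 16.2 FPKM in DOX, against 12.7, 13.6 and 14.0 FPKM in con. Every DOX library was above every con library, yet the log2 fold change of 0.21 ± 0.09 (SE) did not pass with all libraries (limma adjusted p = 0.0814). Fundc1, a receptor whose LC3 binding is set by phosphorylation, had 13.8, 11.9 and 10.4 FPKM in DOX, against 15.1, 14.6 and 13.3 FPKM in con. DOX replicate 1 overlapped con replicate 3, and the log2 fold change was -0.24 ± 0.10 (SE, limma adjusted p = 0.0650). Without DOX replicate 1 Fundc1 passed, at -0.33 (limma adjusted p = 0.0160). Leaving out DOX replicate 3 gave -0.15 (limma adjusted p = 0.256), con replicate 1 -0.20 (0.190) and con replicate 2 -0.23 (0.147). Bnip3l, the close relative of Bnip3, had 30.6, 30.6 and 27.8 FPKM in DOX, against 31.7, 30.4 and 29.6 FPKM in con. The groups overlapped, and the 95% interval of the log2 fold change ran from -0.19 to 0.10, which lies wholly below the interval of Bnip3.

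The share of Bnip3 in the summed FPKM of Bnip3 and Bnip3l sets the pair against each other within each library. It was 69.6%, 66.4% and 67.7% in DOX, against 54.9%, 56.3% and 56.8% in con. With the additions it averaged 67.5% ± 1.08 in DSI+DOX, 67.7% ± 0.565 in AXT+DOX and 66.2% ± 1.02 in DMT+DOX, against 67.9% ± 1.61 in DOX and 56.0% ± 0.966 in con (SD, n = 3 each). All 12 libraries with doxorubicin held more than any con library. The share of Mfn1 in Mfn1 and Mfn2, the fusion pair, averaged 49.5% ± 1.38 in DSI+DOX, 52.0% ± 2.83 in AXT+DOX and 50.8% ± 3.06 in DMT+DOX, against 51.9% ± 2.43 in DOX and 51.3% ± 1.41 in con, and it overlapped between all groups.

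**Figure D2:**
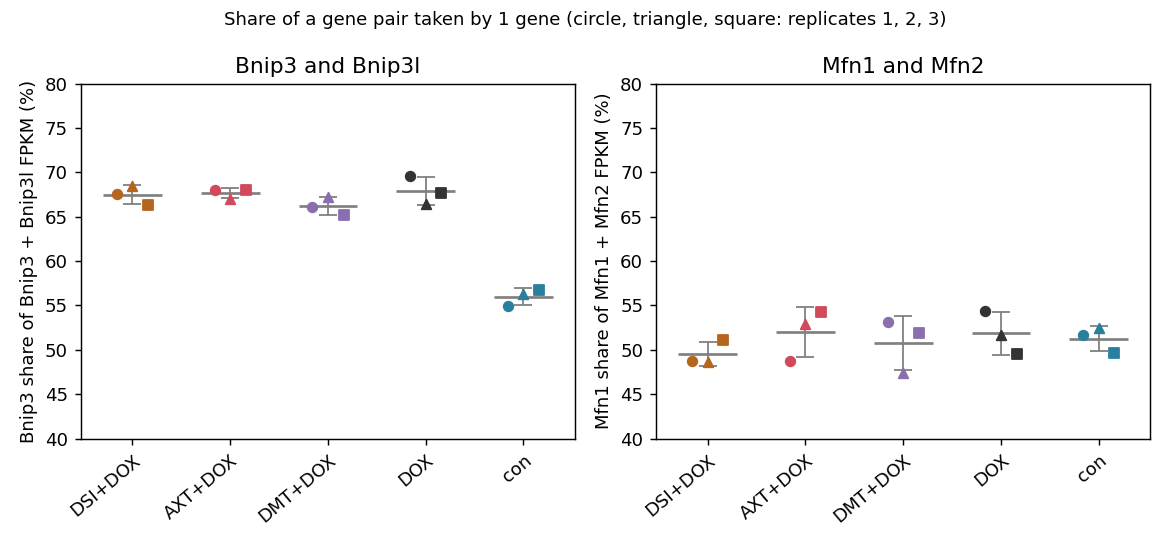
Share in percent (vertical axes, from 40 to 80%) of Bnip3 in Bnip3 plus Bnip3l on the left and of Mfn1 in Mfn1 plus Mfn2 on the right, per library, with lines for the mean and bars for the SD. The Bnip3 share averaged 67.9% in DOX and 56.0% in con, while the Mfn1 share averaged 51.9% in DOX and 51.3% in con.

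Among the fission genes, none was called with all libraries. Dnm1l, the gene of the fission GTPase DRP1, had 21.7, 21.8 and 20.2 FPKM in DOX, against 26.0, 25.3 and 28.4 FPKM in con. All DOX libraries lay below all con libraries. The log2 fold change of -0.31 ± 0.27 (SE) did not pass with all libraries (limma adjusted p = 0.402), where the shared spread took in the low value of DSI+DOX replicate 3. Without that library the value was -0.31 ± 0.09 (SE), with a limma adjusted p of 0.00803. Fis1 had 63.8, 62.4 and 64.9 FPKM in DOX, against 69.5, 76.4 and 67.2 FPKM in con. The DOX libraries were again all lower, with a log2 fold change of -0.15 ± 0.18 (SE), and the gene did not pass with that library (limma adjusted p = 0.534) or without it (0.111). Mff, the gene of a DRP1 receptor, had 35.9, 23.4 and 20.2 FPKM in DOX, against 28.6, 25.0 and 27.8 FPKM in con. The con libraries lay within the range of the DOX libraries, and the 95% interval was -0.50 to 0.36.

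None of the fusion genes was called. Mfn1 had 13.9, 13.8 and 13.2 FPKM in DOX, against 14.3, 14.2 and 14.2 FPKM in con. The DOX values lay just below the con values, with a log2 fold change of -0.05 (95% interval -0.28 to 0.17). Mfn2 averaged 12.7 ± 0.913 FPKM in DOX and 13.5 ± 0.754 FPKM in con (SD, n = 3 each), and its interval was -0.37 to 0.19. Opa1 averaged 25.2 ± 1.05 FPKM in DOX and 26.2 ± 0.659 FPKM in con (SD, n = 3 each), and its interval was -0.27 to 0.17. Libraries of Mfn2 and Opa1 overlapped between the groups.

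Without DSI+DOX replicate 3, 4 of the 10 genes were called in DOX against con, where 57.1% of tested genes were called (33.3% higher and 23.8% lower). Bnip3 rose (limma adjusted p = 2.94e-07), as did Pink1 by 0.21 (limma adjusted p = 0.0166). Dnm1l fell by 0.31 and Fundc1 fell by 0.24 (limma adjusted p = 0.0343) on the log2 scale.

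**Figure D3:**
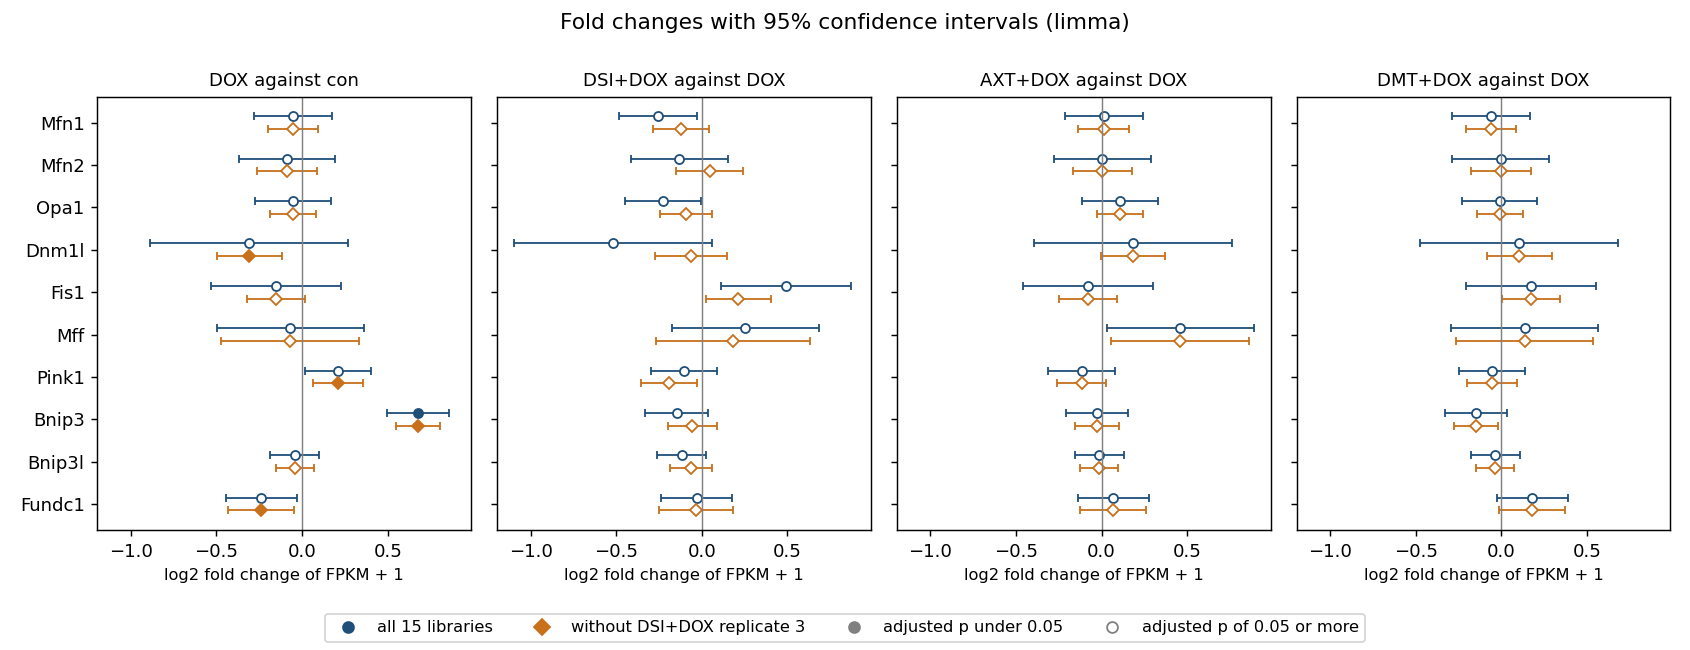
Log2 fold change of FPKM + 1 (horizontal axes) with its 95% interval from limma for each gene in the 4 main comparisons, with all 15 libraries (circles) and without DSI+DOX replicate 3 (diamonds), filled where the adjusted p was under 0.05. With all libraries the filled point is Bnip3 in DOX against con at 0.68, and no point is filled in the comparisons of the additions with DOX.

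None of the 3 additions moved any of the 10 genes past the threshold relative to DOX. These 3 comparisons share the DOX libraries, so they are not independent. In limma, 0 of 10 genes were called with DSI+DOX (7.88% of all tested genes), 0 with AXT+DOX (0.691%) and 0 with DMT+DOX (10.5%). At an unadjusted p under 0.05 the counts were 3, 1 and 0. The share of all tested genes at that threshold was not computed, so these counts cannot be judged against it. The medians over the 10 genes were -0.12, 0.01 and -0.01, against -0.11, 0.00 and -0.04 over all tested genes. Median scaling shifted every DSI+DOX value against DOX by 0.15, so small differences in that comparison depend on the scaling.

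Bnip3 stayed high with each addition. It had 59.1, 61.6 and 49.5 FPKM in DSI+DOX, 60.0, 61.9 and 62.6 FPKM in AXT+DOX, and 54.4, 59.4 and 55.8 FPKM in DMT+DOX, beside 70.1, 60.4 and 58.3 FPKM in DOX. Each addition group overlapped DOX. The 95% interval of the log2 difference from DOX was -0.33 to 0.03 for DSI+DOX, -0.21 to 0.15 for AXT+DOX and -0.33 to 0.03 for DMT+DOX. Adjusted p-values in limma were 0.260, 0.993 and 0.347.

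Fis1 gave the highest single values with DSI. It had 71.7, 76.2 and 133 FPKM in DSI+DOX, against 63.8, 62.4 and 64.9 FPKM in DOX. All DSI+DOX libraries lay above all DOX libraries, with replicate 3 far above the others. The log2 fold change was 0.49 ± 0.18 (SE, limma adjusted p = 0.0961) with replicate 3 and 0.21 (limma adjusted p = 0.136) without it. In DMT+DOX, Fis1 had 65.5, 72.5 and 78.0 FPKM, above every DOX library, with a log2 fold change of 0.17 (limma adjusted p = 0.657). In AXT+DOX it had 68.1, 58.6 and 54.5 FPKM, which overlapped DOX.

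Dnm1l had 20.9, 19.7 and 7.26 FPKM in DSI+DOX, 20.4, 25.4 and 27.5 FPKM in AXT+DOX, and 22.9, 24.4 and 21.5 FPKM in DMT+DOX, beside 21.7, 21.8 and 20.2 FPKM in DOX. Only DSI+DOX replicate 3 lay far below the rest, and each addition group overlapped DOX. The DSI+DOX difference of -0.52 ± 0.27 (SE, limma adjusted p = 0.223) became -0.06 ± 0.10 without that library. Mfn1 had 12.9, 12.0 and 9.16 FPKM in DSI+DOX, all below the DOX libraries, with a log2 fold change of -0.26 ± 0.11 (SE, limma adjusted p = 0.139). Without replicate 3 the Mfn1 value was -0.12 ± 0.08 (SE, limma adjusted p = 0.325). Opa1 had 24.4, 22.7 and 17.5 FPKM in DSI+DOX, overlapping DOX, with -0.23 (limma adjusted p = 0.170) and -0.09 without replicate 3.

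Mff had 35.5, 39.4 and 32.7 FPKM in AXT+DOX, against 35.9, 23.4 and 20.2 FPKM in DOX. DOX replicate 1 overlapped the AXT+DOX libraries and the other DOX libraries were lower, with a log2 fold change of 0.46 (95% interval 0.03 to 0.89, limma adjusted p = 0.575). Fundc1 had 13.7, 14.0 and 13.5 FPKM in DMT+DOX, against 13.8, 11.9 and 10.4 FPKM in DOX. DOX replicate 1 fell within the DMT+DOX range, and the interval was -0.03 to 0.39 (limma adjusted p = 0.305). Pink1 averaged 14.6 ± 1.83 FPKM in DSI+DOX, 14.4 ± 1.18 FPKM in AXT+DOX, 15.1 ± 0.935 FPKM in DMT+DOX and 15.7 ± 0.443 FPKM in DOX (SD, n = 3 each). Its libraries overlapped those of DOX in each comparison, as did those of Bnip3l and Mfn2.

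Compared with con, each addition group kept Bnip3 raised. The log2 fold change was 0.53 ± 0.08 in DSI+DOX (limma adjusted p = 0.000333), 0.65 ± 0.08 in AXT+DOX (limma adjusted p = 4.41e-05) and 0.53 ± 0.08 in DMT+DOX (limma adjusted p = 0.000388), each SE, with all 3 libraries above all 3 con libraries. These comparisons share the con libraries. In AXT+DOX and DMT+DOX it was 1 of 10 genes called, where 35.5% and 26.2% of tested genes were called. In DSI+DOX 5 of 10 genes were called, 1 higher and 4 lower, where 41.8% of tested genes were called, 20.5% higher and 21.3% lower.

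The 4 lower genes in DSI+DOX against con were Dnm1l at -0.83 ± 0.27 (SE, limma adjusted p = 0.0264), Mfn1 at -0.31 ± 0.11 (SE, 0.0310), Fundc1 at -0.27 ± 0.10 (SE, 0.0385) and Opa1 at -0.28 ± 0.10 (SE, 0.0418). These calls depended on single libraries and on the processing. Without DSI+DOX replicate 3, 3 of 10 genes were called, where 40.6% of tested genes were. Dnm1l was -0.37 ± 0.10 (limma adjusted p = 0.00823) and Fundc1 -0.27 (0.0423), while Mfn1 at -0.18 (0.0780) and Opa1 at -0.14 (0.116) no longer passed. Without con replicate 1, the adjusted p was 0.0602 for Dnm1l, 0.0767 for Mfn1, 0.122 for Fundc1 and 0.0867 for Opa1. Without con replicate 2 it was 0.0522, 0.0672, 0.0922 and 0.0741 in that order, and without con replicate 3 it was 0.0802 for Dnm1l, 0.0755 for Mfn1 and 0.115 for Opa1. Without DSI+DOX replicate 1 Fundc1 had 0.106. When the fit held DSI+DOX and con alone, none of the 4 passed (limma adjusted p = 0.134 to 0.183). Fundc1 was also lost after median scaling (-0.18, limma adjusted p = 0.204), after quantile normalization (-0.20, 0.146) and with no filter on low values (0.0558), and Opa1 with the replicate block (0.0582) and with no filter (0.0634). Bnip3 was called in every one of these fits.

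Between the additions, 0 of 10 genes were called in DSI+DOX against AXT+DOX (10.5% of tested genes). The count was also 0 in DSI+DOX against DMT+DOX (1.68%) and in AXT+DOX against DMT+DOX (4.7%). At an unadjusted p under 0.05 the counts were 4, 2 and 0, again without a share of all tested genes to set beside them. Opa1 and Fis1 came closest, both in DSI+DOX against AXT+DOX. For Opa1, all DSI+DOX libraries lay below all AXT+DOX libraries, with a log2 fold change of -0.33 ± 0.10 (SE, limma adjusted p = 0.0541). It was called without DSI+DOX replicate 1 (-0.43, limma adjusted p = 0.0136), DSI+DOX replicate 2 (-0.38, 0.0495) or AXT+DOX replicate 1 (-0.40, 0.0446), but not without DSI+DOX replicate 3 (-0.20, 0.0845). Opa1 was also not called without AXT+DOX replicate 2 (limma adjusted p = 0.157) or replicate 3 (0.200). Median scaling (0.125) and a fit of only the groups compared (0.379) did not call it either. Fis1 was at 0.57 (limma adjusted p = 0.0550), and it was called without DSI+DOX replicate 1 (0.73, 0.0136) or replicate 2 (0.69, 0.0384) and after quantile normalization (0.48, 0.0358). Fis1 was not called without AXT+DOX replicate 1 (limma adjusted p = 0.0541), replicate 2 (0.155) or replicate 3 (0.194). Median scaling (0.0611) and a fit of only the groups compared (0.379) did not call it either. Without DSI+DOX replicate 3 Fis1 was at 0.29 ± 0.09 (SE, limma adjusted p = 0.0455, 11.7% of tested genes called), and in AXT+DOX against DMT+DOX it was -0.25 ± 0.08 (SE, limma adjusted p = 0.0434, 15.9% called), so Fis1 was lower in AXT+DOX than in either other addition in that fit. The AXT+DOX libraries overlapped those of DMT+DOX, and with all libraries that difference did not pass (limma adjusted p = 0.555). In AXT+DOX against con, Fis1 was -0.23 (limma adjusted p = 0.0215) without DSI+DOX replicate 3, where 53.6% of tested genes were called. The libraries of AXT+DOX and con overlapped, and with all libraries Fis1 did not pass (limma adjusted p = 0.337).

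Dnm1l had the widest span of group means with all libraries, a span that leaned on DSI+DOX replicate 3. The genes whose profile over the 15 libraries lay closest to that of Dnm1l were Tm9sf3, Cep170 and Zfx. Their root mean square differences from it, on centred log2(FPKM + 1) values, were 0.0419, 0.0493 and 0.0617 among 10572 genes. All of them shared the low value of DSI+DOX replicate 3. For Bnip3, a comparison chosen after its values were seen, the closest were Hadhb, the beta subunit of the mitochondrial trifunctional enzyme of fatty acid oxidation, at 0.0723, Irf2bp2 at 0.0813 and Tsnax at 0.0827. Hadhb averaged 313 ± 14.9 FPKM in DOX and 206 ± 5.81 FPKM in con (SD, n = 3 each).

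Other genes of the same processes, and genes of the hypoxia response, were read from 5 lists. The counts below stand beside the 38.9% of all tested genes called in DOX against con, or 57.1% without DSI+DOX replicate 3. Without that library the genes called were 3 higher for fusion and OPA1 processing, 5 higher and 1 lower for fission, 6 higher for PINK1 and parkin mitophagy, 10 higher and 1 lower for receptor mitophagy and the LC3 family, and 6 higher and 4 lower for the hypoxia response. Of 9 tested genes for fusion and OPA1 processing, 2 rose and 0 fell, with a list median of 0.23 where all genes had 0.05. Oma1, the stress-activated protease that cuts OPA1, averaged 6.14 ± 0.560 FPKM in DOX and 3.88 ± 0.161 FPKM in con (log2 0.54, limma adjusted p = 0.000271). Parl, an inner membrane protease that cleaves PINK1, rose by 0.36 (limma adjusted p = 0.00697), but not after median scaling, which gave 0.29 (0.0831).

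Of 11 further fission genes, 4 rose and 1 fell, with a median of 0.23. Pgam5, a mitochondrial phosphatase that acts on DRP1, averaged 48.8 ± 4.36 FPKM in DOX and 32.8 ± 1.28 FPKM in con (log2 0.56, limma adjusted p = 6.12e-05). Mtfr1l, a member of the fission regulator family, averaged 39.0 ± 1.64 FPKM in DOX and 27.4 ± 1.18 FPKM in con. Its relative Mtfr2 went the other way, at 12.0 ± 0.278 FPKM in DOX and 17.7 ± 0.295 FPKM in con (log2 -0.53, limma adjusted p = 0.00737). A lack of overlap between DOX and con was a condition for naming these 3 genes, not a result (SD, n = 3 each).

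Of 16 further genes of PINK1 and parkin mitophagy, 4 rose and 0 fell, with a median of 0.06. Sqstm1, the ubiquitin-binding autophagy adaptor p62, averaged 535 ± 14.1 FPKM in DOX and 193 ± 6.67 FPKM in con (log2 1.46, limma adjusted p = 9.29e-10). Optn, another ubiquitin-binding adaptor, averaged 12.0 ± 0.591 FPKM in DOX and 7.21 ± 0.537 FPKM in con. Usp30, a deubiquitinase that opposes parkin, averaged 8.98 ± 0.586 FPKM in DOX and 5.50 ± 0.164 FPKM in con. Sqstm1 and Optn serve ubiquitin-dependent mitophagy and Usp30 restrains it, and the 3 rose together.

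Of 16 genes of receptor mitophagy and the LC3 family, 7 rose and 0 fell, with a median of 0.27, and without DSI+DOX replicate 3 there were 11 called. Bcl2l1, which encodes the survival protein BCL-XL, averaged 56.1 ± 0.947 FPKM in DOX and 25.8 ± 2.15 FPKM in con. Gabarapl1, an LC3-family protein that receptors bind, averaged 45.2 ± 1.86 FPKM in DOX and 29.3 ± 0.760 FPKM in con. Nlrx1, a mitochondrial member of the NLR family, averaged 6.99 ± 0.494 FPKM in DOX and 4.36 ± 0.158 FPKM in con (SD, n = 3 each).

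Because Bnip3 is a hypoxia target, 18 other genes of the hypoxia response were read as well. Of these, 6 rose and 4 fell, with a median of 0.04. Vegfa, the vascular growth factor, averaged 44.2 ± 1.82 FPKM in DOX and 11.3 ± 1.06 FPKM in con (log2 1.88), and Pfkfb3 and Bhlhe40 rose by 1.06 and 0.85. The genes that fell were Ldha, Pgk1, Pdk1 and Ero1a, named after their values were seen. Ldha, which makes lactate from pyruvate, averaged 513 ± 21.4 FPKM in DOX and 702.5 ± 31.5 FPKM in con (log2 -0.45). The list therefore did not move in a single direction.

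**Figure D4:**
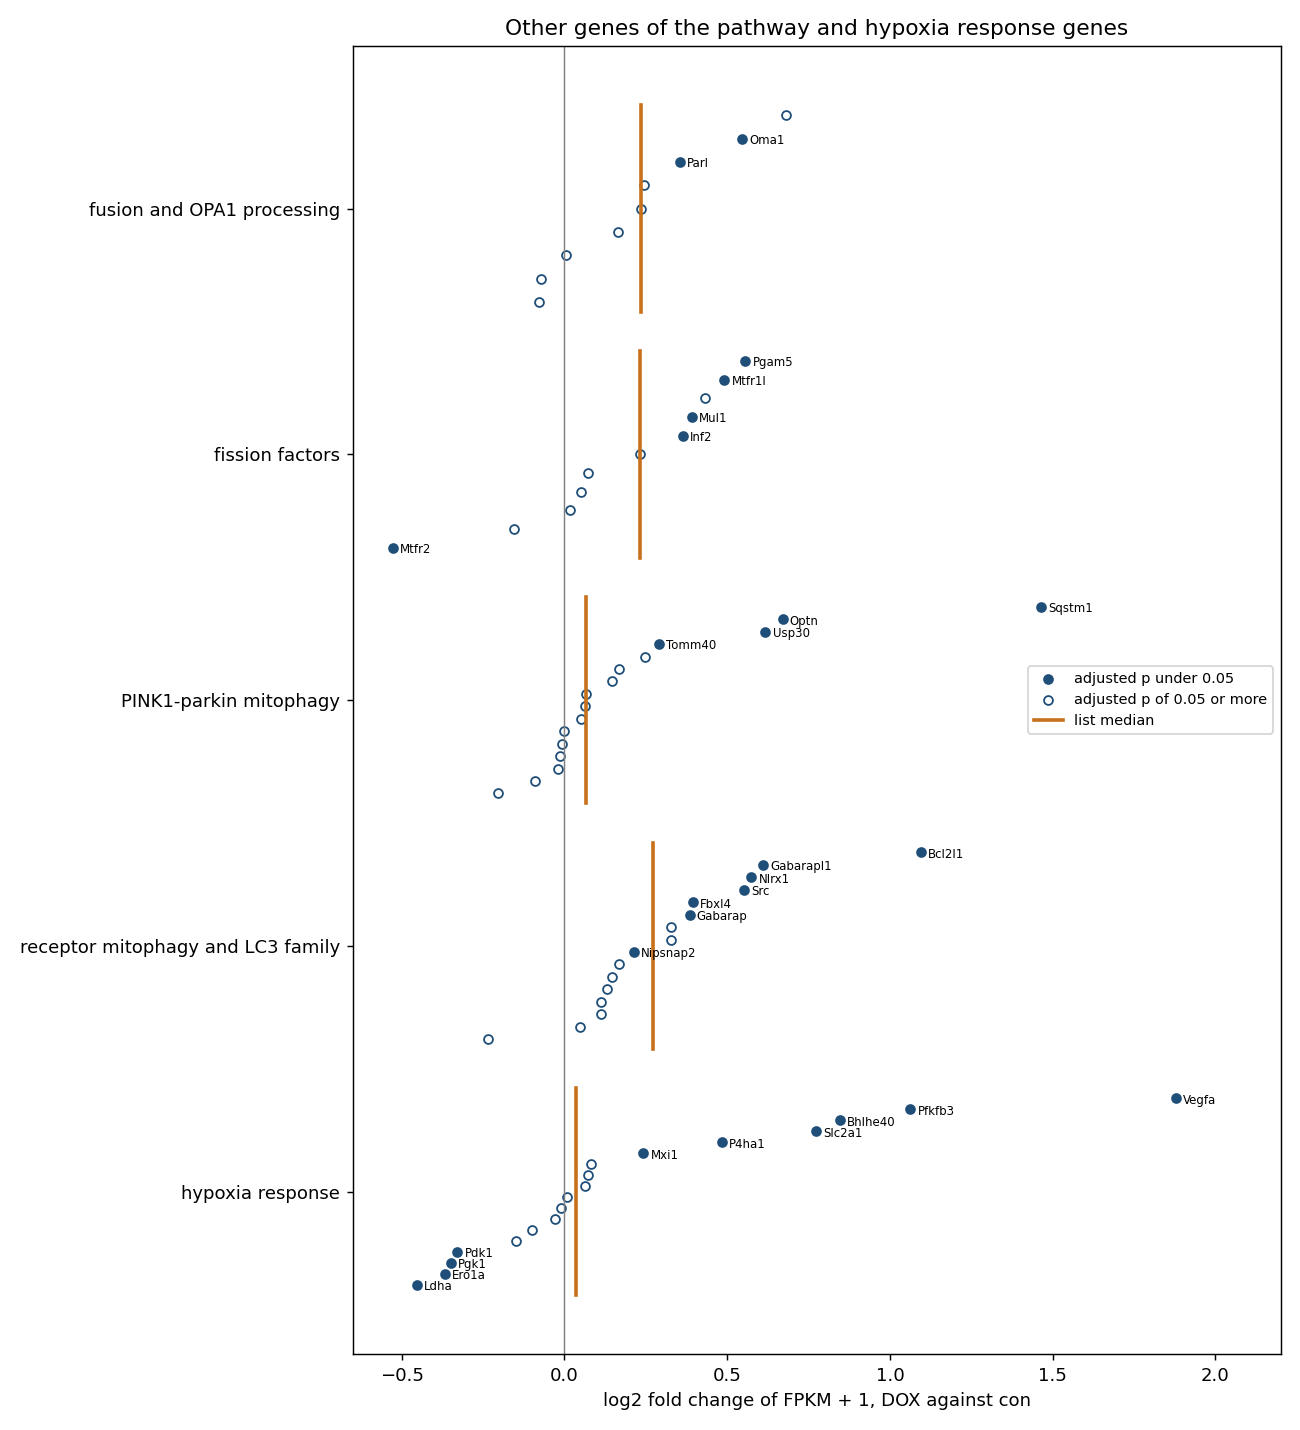
Log2 fold change of FPKM + 1 in DOX against con (horizontal axis) for each tested gene of the 5 lists, with filled points where the limma adjusted p was under 0.05 and vertical bars at list medians. The receptor mitophagy list had 7 filled points to the right of 0 and a median of 0.27, while the hypoxia list had 6 to the right and 4 to the left and a median of 0.04.

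Against DOX, 7 of the 70 tested genes of the 5 lists, hypoxia genes included, were lower with DSI+DOX. The count was 0 with AXT+DOX and 10 with DMT+DOX, and none was higher. Over all 11288 tested genes, 6.41% were called lower with DSI+DOX and 7.53% with DMT+DOX. Few of them were called higher: 166 with DSI+DOX, 8 with AXT+DOX and 331 with DMT+DOX. At 425 ± 10.7 FPKM in DSI+DOX and 535 ± 14.1 FPKM in DOX, Sqstm1 had a log2 fold change of -0.33 (limma adjusted p = 0.00470). Pgam5 averaged 37.0 ± 1.76 FPKM in DSI+DOX, 36.3 ± 0.359 FPKM in DMT+DOX and 48.8 ± 4.36 FPKM in DOX, with log2 fold changes of -0.39 (limma adjusted p = 0.00806) and -0.41 (0.00361). Vegfa averaged 28.1 ± 5.34 FPKM in DSI+DOX, 32.2 ± 0.689 FPKM in DMT+DOX and 44.2 ± 1.82 FPKM in DOX (SD, n = 3 each). The other genes lower with DSI+DOX were Mtfr1l, Optn, Usp30 and Bhlhe40, and with DMT+DOX they were Oma1, Mtfr1l, Optn, Tomm40, Usp30, Sqstm1, Src and Nlrx1. These calls moved with the library set and the scaling. Median scaling ended those of Sqstm1 (-0.18, limma adjusted p = 0.214) and Pgam5 (-0.23, limma adjusted p = 0.139) with DSI+DOX, while quantile normalization gave -0.57 for Sqstm1 (limma adjusted p = 0.00232) and -0.36 for Pgam5 (0.00757). With DMT+DOX, Vegfa no longer passed when any DOX or DMT+DOX library was left out (limma adjusted p = 0.0615 to 0.0958). After median scaling 1 gene was lower with DSI+DOX, and with DMT+DOX 3 were lower and 1 was higher. With a library left out the counts called ran from 3 (without DOX replicate 2) to 25 (without DSI+DOX replicate 1) for DSI+DOX, and from 2 (without DMT+DOX replicate 1 or 2) to 21 (without DSI+DOX replicate 3) for DMT+DOX. For AXT+DOX they ran from 0 to 1, with 1 gene called lower without DSI+DOX replicate 3. When the model held only the groups compared, 0 genes were called with DSI+DOX and 17 with DMT+DOX.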

How the data were processed

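RNA of 15 H9c2 samples was extracted with TRIzol and made into libraries with a NEBNext Ultra kit, per the labels. The values are FPKM as deposited by the authors, 1 column per library per the file headers. The submitters' processing notes name Trimmomatic, HISAT2, featureCounts and Rnor_6.0, and the step from counts to FPKM is not given in the sources used here. Of 1351 low genes, 0.444% fell on the most common ratio between con replicates 1 and 2, so whole reads could not be recovered. The depth is unknown, and no counting interval was computed.

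The table held 19344 entries, of which 16 exact duplicates were removed. The rule for testing was at least 1 FPKM in 3 or more libraries, which left 11288 genes. limma 3.58.1 in R 4.3.3 fitted log2(FPKM + 1) with a mean per group over all 15 libraries, with an intensity trend and 10 residual degrees of freedom. Tests were two-sided, with Benjamini-Hochberg adjustment over all tested genes and calls at an adjusted p under 0.05. The added 1 understates changes of low genes. Reads shared by similar copies or overlapping genes cannot be told apart. Nothing in the labels says that replicates were separate cultures. The p-values then reflect only how far these samples differ, which may be technical. The script was tested on simulated data.

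All 10 genes were described in 10 comparisons, of which 4 were main. From each of 5 lists (70 genes tested of 82 listed), the called genes with the 3 largest changes and no overlap were named in each main comparison, and for Dnm1l the 3 genes of closest profile. The genes and lists were chosen with earlier results of these data known. Alternatives changed the pseudocount (0.1), the filter (5 FPKM, or no filter), the scaling (equal medians, or quantiles) and the model (only the groups compared, or a replicate block), or left out each library. Promoters came from RefSeq (GRCr8). Plots used matplotlib 3.10.9 (Python 3.11.15).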

Additional observations from a re-analysis of the deposited data

How the results depend on the processing

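Of 550 values of the 10 genes under alternatives in the main comparisons, 538 kept their call, 12 gained one, 0 lost one, and 37 uncalled values changed sign. Bnip3 was called against con in all 55 alternatives, with log2 fold changes in DOX of 0.60 to 0.73 and limma adjusted p-values of 2.94e-07 to 0.000236. In DOX against con, 1 gene of the 10 was called, against 2 after median scaling and 2 after quantile normalization (Bnip3 and Fundc1), 4 with only the groups compared (Bnip3, Dnm1l, Fis1 and Pink1), and 1 to 4 with a library left out. In DSI+DOX against DOX the count of 0 became 3 without DSI+DOX replicate 1 (Fis1, Mfn1 and Opa1), a range of 0 to 3, and in the other main comparisons it stayed at 0. Over all genes, 4391 were called in DOX against con (3496 to 6433 with a library left out). With DSI+DOX against DOX, 889 were called, 475 after median scaling (278 higher and 197 lower, against 166 and 723), 1 with only the groups compared, and 366 to 2531 with a library left out. With AXT+DOX, 78 became 41 with a pseudocount of 0.1, 162 with no filter, 44 with the filter at 5 FPKM, and 12 to 372 with a library left out. With DMT+DOX, 1181 became 2252 with only the groups compared and 672 to 2821 with a library left out, and median scaling gave 490 higher and 434 lower, against 331 and 850. The cause of these shifts was not tested. Deviations from group means of same-numbered libraries of different groups correlated at -0.455 to 0.144 over 12 pairs, and the main fit did not pair them. With 3 libraries a group, low correlations cannot show that the numbers carry no pairing. A replicate block gave 569 calls for DSI+DOX and 31 for AXT+DOX.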
